A study of Mus musculus with 16 samples.

Results

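Proliferation genes were described in the livers of female mice, over 40 listed genes of the cell cycle. They run from the D and E cyclins that act before DNA synthesis to the proteins of the mitotic spindle. The list was chosen by gene name, with earlier results of these data known. All 40 genes were measured, of 15119 genes in the deposited counts table (39 of the 40) and 35712 genes in a second deposited table (which also gave Cdc6). In LKO mice Arglu1, a coregulator of transcription and splicing, was knocked out in hepatocytes, and WT mice served as controls. All mice were aged to 9 months on chow, after which mice of both genotypes were either switched to a high-fat diet (HFD, TD. 88137) or kept on chow for 12 weeks. The 4 groups were LKO on HFD, WT on HFD, LKO on chow and WT on chow, with 4 libraries of poly(A)-selected liver RNA each. The labels name neither the Cre driver nor the deleted exons, and whether the libraries came from different animals is not stated, in which case p-values measure only the spread between libraries.

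Dividing cells pass through a fixed order of steps. Cyclin D and cyclin E kinases release E2F transcription factors from the retinoblastoma protein, E2F targets then license and copy the DNA and supply its nucleotides, and cyclin A, cyclin B and Cdk1 drive mitosis with genes that are read late in the cycle. Most hepatocytes of an adult liver are outside the cycle and return to it mainly after injury or loss of tissue, while macrophages, endothelial cells and other cells of the liver also divide. In whole liver, fewer cells of a type and less RNA per cell cannot be told apart.

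The promoters of such genes carry recurring short sequences. CCAAT is the core bound by NF-Y, TTTGAA is the cell cycle homology region bound by complexes built on MuvB, and TTTGGCGC and TTTCCCGC are spellings of the E2F motif. Of the 40 members, 31 were found in the RefSeq promoter table (GRCm38.p6). As examples, 4 stretches of 160 bases are shown, from late mitotic and replication members that carry TTTGAA or TTTGGCGC. Each reads 5′ to 3′ on the strand of its gene, with these 4 motifs in capitals wherever they occur on either strand. Cdc20, which activates the ubiquitin ligase that ends mitosis, lies on the minus strand at chr4:118437344-118437503, and Cdk1, the mitotic kinase, on the minus strand at chr10:69352913-69353072. Mcm5 lies on the plus strand at chr8:75109349-75109508 and Mcm6 on the minus strand at chr1:128359706-128359865, and both encode subunits of the replicative helicase.
Cdc20: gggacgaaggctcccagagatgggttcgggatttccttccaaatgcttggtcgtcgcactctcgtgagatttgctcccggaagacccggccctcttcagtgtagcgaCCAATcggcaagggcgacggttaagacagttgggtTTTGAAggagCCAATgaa
Cdk1: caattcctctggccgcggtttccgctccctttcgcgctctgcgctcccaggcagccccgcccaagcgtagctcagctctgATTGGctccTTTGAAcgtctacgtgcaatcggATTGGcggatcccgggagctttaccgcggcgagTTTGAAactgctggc
Mcm5: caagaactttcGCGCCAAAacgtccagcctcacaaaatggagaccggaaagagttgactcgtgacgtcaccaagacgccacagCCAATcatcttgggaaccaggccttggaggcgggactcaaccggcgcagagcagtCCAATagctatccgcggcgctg
Mcm6: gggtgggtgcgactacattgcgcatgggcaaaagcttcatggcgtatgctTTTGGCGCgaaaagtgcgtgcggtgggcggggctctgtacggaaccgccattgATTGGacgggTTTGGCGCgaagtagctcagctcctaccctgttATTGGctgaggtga

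Over the 250 bases before the listed start, CCAAT was present in 23 of the 31 member promoters (74.2%) and in 34.5% of all 27025 promoters. TTTGAA was present in 8 members (25.8%) and in 16.3% of all promoters. An E2F motif of either spelling was present in 4 members (12.9%), namely Mcm5, Mcm6, Mcm7 and Cdc6, and in 1.35% of all promoters. Taken singly, TTTGGCGC was in 2 members (6.45%, against 0.437% of all promoters) and TTTCCCGC in 2 members (6.45%, against 0.929%). These matches describe letters and not occupied sites. The first listed start of each gene was used, and for Cdc6, Mcm7 and E2f1 all 250 bases lie inside the gene as annotated in GENCODE M21. Ccnd1, Ccnd2, Ccne2, Foxm1, Mcm4, Ccna2, Aurkb, Kif20a and Tpx2 had no entry in that table.

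Total counts ran from 19142612 to 25120565 per library. Values are TMM-scaled CPM, that is, counts relative to the size of each library after scaling by the trimmed mean of M values, and differences were tested with the quasi-likelihood test of edgeR on the 14434 genes that passed its filter on low counts, with Benjamini-Hochberg adjustment over all of them and a call at an adjusted p below 0.05. Arglu1 itself averaged 15.5 ± 1.53 CPM in LKO and 42.2 ± 1.70 CPM in WT on HFD, and 14.7 ± 1.56 CPM in LKO and 41.2 ± 2.62 CPM in WT on chow (SD, n = 4 each). Hepatocyte markers were abundant, with 6 of them, mostly Alb by CPM, summing to between 59146 and 117056 CPM per library. Summed over the members, RNA of the list ranged from 259.7 to 563 CPM.

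A single gene made up a large part of that sum. Ccnd1, which encodes cyclin D1, averaged 38.2 CPM per kilobase of annotated exon over the 16 libraries. Pcna, the sliding clamp of the replication fork, followed at 14.1 CPM per kilobase, then E2f8, a repressor of the E2F family, at 4.28, Tk1, which encodes thymidine kinase 1, at 4.01, and Mcm7, a helicase subunit, at 3.46 CPM per kilobase. The lowest levels per kilobase were those of Cdc6, which loads the helicase, at 0.0724, Bub1, a kinase of the spindle checkpoint, at 0.0708, and Cenpf, a centromere protein, at 0.0662 CPM per kilobase. Without scaling for length, 7 members averaged over 10 CPM, 26 lay between 1 and 10 CPM, and 7 averaged under 1 CPM. Mean counts ran from 6.88 for Bub1 to 4049 for Ccnd1, and 4 members averaged fewer than 20 counts, so that for these a modest difference was not detectable at this depth. Bub1 did not pass the filter, which left 38 members tested from the counts table, and Cdc6 was tested in the second table.

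**Figure D1:**
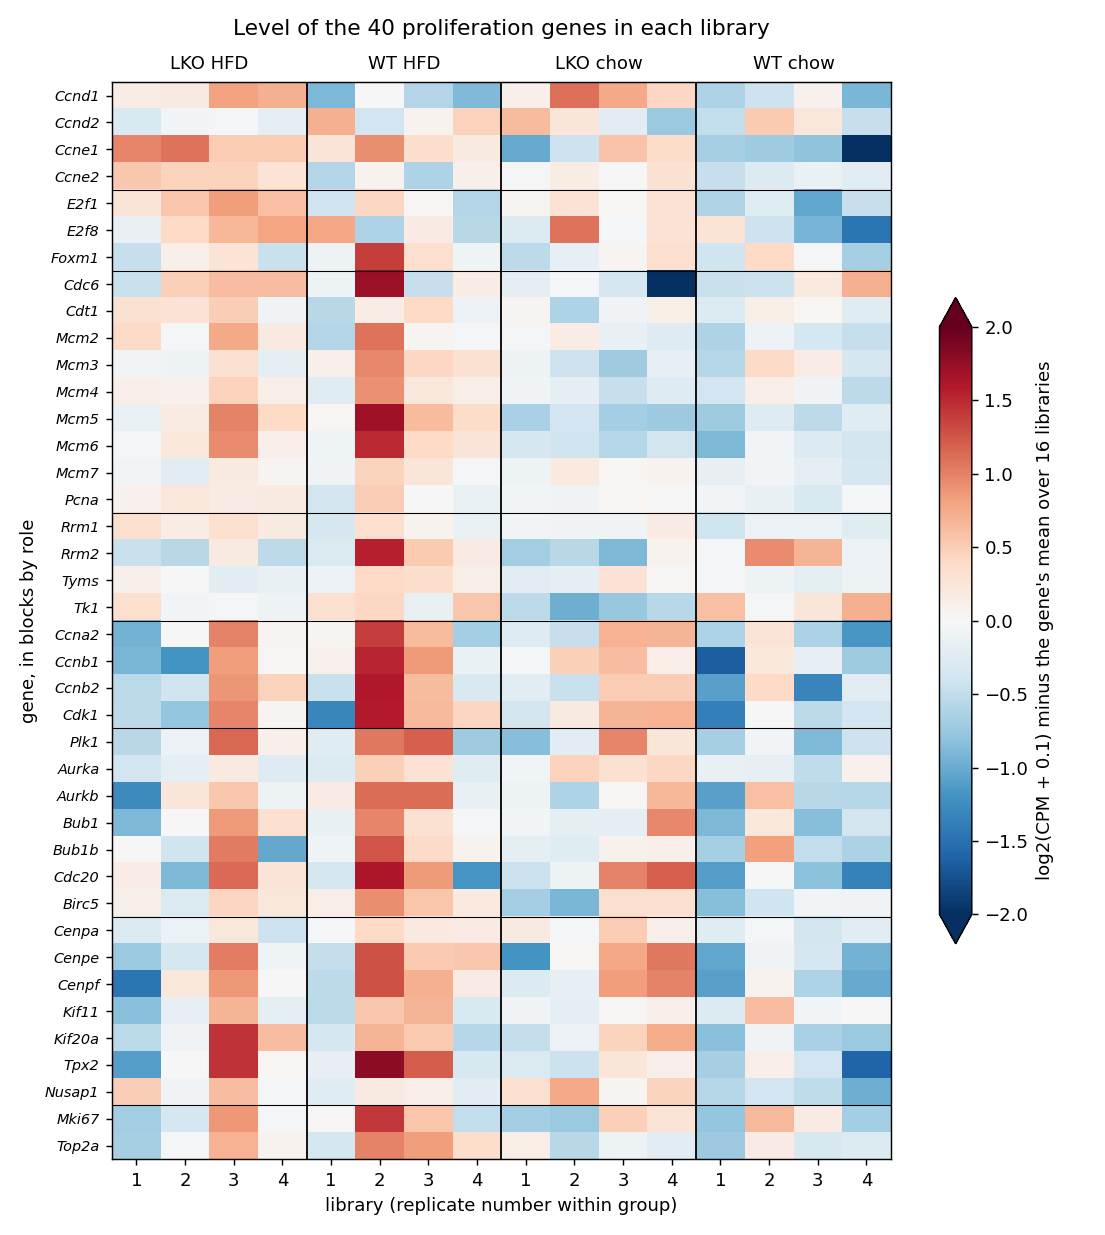
Level of the 40 proliferation genes (rows, in blocks by role) in each of the 16 libraries (columns, by group and replicate), as log2(CPM + 0.1) minus the gene's mean over the 16 libraries, with red above and blue below the mean. WT HFD replicate 2 is the reddest column, being the highest of the 16 libraries in 26 of the 40 genes. The share of all genes highest in that library was not computed. Cdc6 is taken from the second table.

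Ccnd1 and E2f1, which act before DNA synthesis, were higher in LKO livers on both diets. On HFD, 3 members were called higher in LKO than in WT and 0 lower, namely Ccnd1, Ccne2 and E2f1, where 17.9% of all genes tested were called (10.3% higher and 7.57% lower). On chow, 3 members were called higher in LKO (Ccnd1, E2f1 and Nusap1) and 1 lower (Tk1), where 24.7% of all genes tested were called (12.9% higher and 11.8% lower). The share of members called was thus no larger than that of all genes in either comparison.

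Cyclin D1 binds Cdk4 and Cdk6 and carries growth signals to the retinoblastoma protein. On HFD, Ccnd1 (chr7:144929931-144939925, minus strand, GENCODE M21 on GRCm38) had 180.4, 186, 287 and 269 CPM in LKO livers, against 88.0, 162, 108 and 88.4 CPM in WT livers. On chow it had 176, 349, 277 and 217 CPM in LKO livers, against 107, 123, 174 and 87.0 CPM in WT livers. Every LKO library lay above every WT library of the same diet, although on chow the lowest LKO library, at 176 CPM, was next to the highest WT library, at 174 CPM. The log2 fold change was 1.05 ± 0.264 on HFD (SE, edgeR adjusted p = 0.0116) and 1.06 ± 0.264 on chow (edgeR adjusted p = 0.0085), and both calls held under each of 27 alternative settings. Ccnd1 overlaps the antisense gene LTO1 over 1771 bases, and since the use of strand in the counting is not given in the sources used here, reads from that stretch cannot be assigned. LTO1 itself rose on chow by a log2 fold change of 0.51 (edgeR adjusted p = 0.00719), and on HFD its value was 0.24 (adjusted p = 0.206).

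The remaining cyclins of this role did not follow as a block. Ccne2, which encodes cyclin E2, a partner of Cdk2 at the start of DNA synthesis, had 3.06, 2.88, 2.84 and 2.51 CPM in LKO livers on HFD, against 1.35, 2.19, 1.32 and 2.24 CPM in WT livers. The groups did not overlap, and the log2 fold change was 0.66 ± 0.202 (edgeR adjusted p = 0.03). On chow Ccne2 averaged 2.24 ± 0.263 CPM in LKO and 1.70 ± 0.162 CPM in WT (SD, n = 4 each), and the difference of 0.40 on the log2 scale was not called (edgeR adjusted p = 0.176). The call on HFD was lost when WT HFD replicate 1 or 3 or LKO HFD replicate 1, 2 or 3 was left out, with an adjusted p of up to 0.104 over the alternatives. Ccne2 shares 5622 bases with Ints8 on the opposite strand, whose log2 fold change on HFD was 0.10 (edgeR adjusted p = 0.526). Ccne1, for cyclin E1, had log2 fold changes of 0.37 on HFD (edgeR adjusted p = 0.566) and 1.23 on chow (adjusted p = 0.0749), and Ccnd2, for cyclin D2, of -0.41 on HFD (adjusted p = 0.379) and 0.05 on chow (adjusted p = 0.93).

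Among the transcription factors, E2f1 rose on both diets. E2f1, an activator of replication genes (chr2:154559407-154569892, minus strand), had 4.47, 5.53, 6.69 and 5.66 CPM in LKO livers on HFD, against 2.81, 4.98, 3.78 and 2.44 CPM in WT livers. On chow it had 3.86, 4.54, 3.77 and 4.55 CPM in LKO livers, against 2.42, 3.14, 1.76 and 2.69 CPM in WT livers. The groups were apart on chow, whereas on HFD WT replicate 2, at 4.98 CPM, lay above LKO replicate 1, at 4.47 CPM. The log2 fold change was 0.68 ± 0.216 on HFD (edgeR adjusted p = 0.037) and 0.73 ± 0.223 on chow (edgeR adjusted p = 0.0226). Each call held in 21 of 27 alternative settings, with the highest adjusted p at 0.121 on HFD and 0.0762 on chow. The HFD call was lost without WT HFD replicate 1, 3 or 4 or LKO HFD replicate 2, 3 or 4, and the chow call without WT chow replicate 1 or 3 or LKO chow replicate 4, without LKO chow replicates 1 and 2 or 3 and 4 together, and under limma voom (adjusted p = 0.0579).

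E2f8 was the most abundant gene of that role. It had 18.9, 27.7, 33.6 and 36.3 CPM in LKO livers on HFD, against 36.1, 13.7, 23.5 and 14.3 CPM in WT livers. On chow E2f8 had 17.3, 45.0, 20.6 and 25.8 CPM in LKO livers, against 25.4, 15.8, 10.99 and 7.58 CPM in WT livers. The groups overlapped on both diets, and neither the log2 fold change of 0.41 ± 0.405 on HFD (edgeR adjusted p = 0.545) nor that of 0.87 ± 0.413 on chow (adjusted p = 0.148) was called. Foxm1, an activator of late cell cycle genes, had values of -0.65 on HFD (edgeR adjusted p = 0.232) and 0.07 on chow (adjusted p = 0.922).

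**Figure D2:**
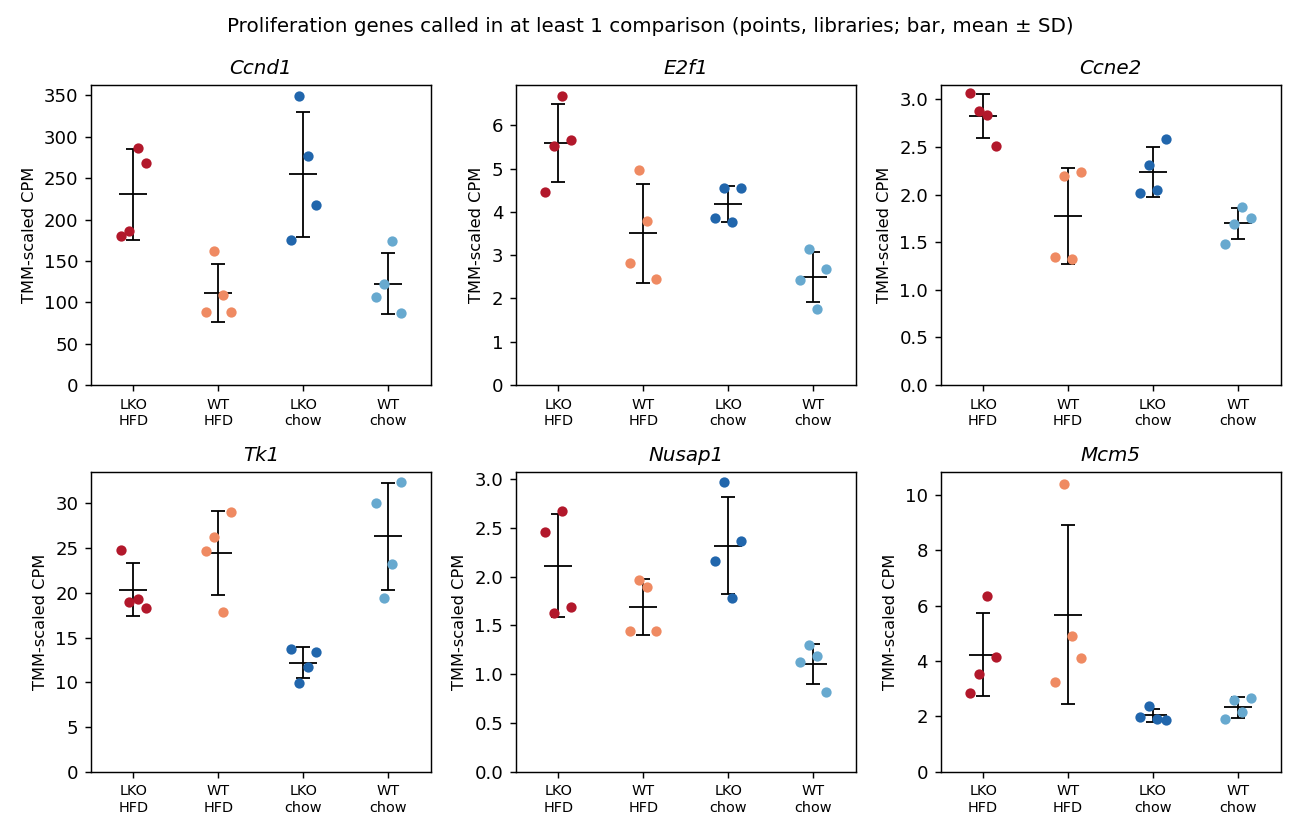
TMM-scaled CPM of the 6 members called in at least 1 comparison, by group from left to right LKO HFD, WT HFD, LKO chow and WT chow, with 1 point per library and the mean ± SD (n = 4) as a bar. Ccnd1 lies higher in LKO on both diets, Tk1 is lowest in LKO on chow, and Mcm5 is highest in WT HFD replicate 2 at 10.4 CPM.

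Of the 4 genes for nucleotide supply, 1 was called, Tk1, which fell on chow. Tk1, the salvage enzyme that phosphorylates thymidine (chr11:117815526-117826092, minus strand), had 13.8, 9.96, 11.7 and 13.4 CPM in LKO livers on chow, against 30.05, 19.5, 23.3 and 32.4 CPM in WT livers. The lowest WT library lay above the highest LKO library, and the log2 fold change was -1.11 ± 0.173 (edgeR adjusted p = 0.000172), a call that held in all 27 alternatives. On HFD Tk1 had 24.8, 18.98, 19.4 and 18.3 CPM in LKO livers, against 24.6, 26.2, 17.9 and 29.0 CPM in WT livers, and the overlapping groups gave a log2 fold change of -0.26 ± 0.169 (edgeR adjusted p = 0.32). Tk1 overlaps Afmid on the opposite strand over 169 bases, and Afmid fell on chow by 0.39 on the log2 scale (edgeR adjusted p = 0.0439). Tk1 also lies within a longer annotated gene, Gm20708, that is absent from the counts table.

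Rrm2, the regulatory subunit of ribonucleotide reductase, lay lower in LKO on both diets without being called. It had 3.53, 3.26, 5.52 and 3.34 CPM in LKO livers on HFD, against 3.94, 14.4, 6.98 and 5.42 CPM in WT livers. On chow Rrm2 had 2.95, 3.28, 2.55 and 5.10 CPM in LKO livers, against 4.76, 9.47, 7.85 and 4.44 CPM in WT livers. A single LKO library on each diet reached into the WT range, and the log2 fold changes were -0.97 on HFD (edgeR adjusted p = 0.0763) and -0.94 on chow (adjusted p = 0.0726). Its partner Rrm1, the catalytic subunit, had 0.24 on HFD (edgeR adjusted p = 0.198) and 0.21 on chow (adjusted p = 0.252). Tyms, which makes thymidylate, had -0.27 on HFD (edgeR adjusted p = 0.205) and 0.10 on chow (adjusted p = 0.665). Summed over these 4 genes, nucleotide supply RNA came to 48.9 ± 4.41 CPM in LKO and 55.6 ± 9.81 CPM in WT on HFD, and to 37.8 ± 3.57 CPM in LKO and 52.6 ± 2.98 CPM in WT on chow (SD, n = 4 each).

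None of the genes for licensing and the replication fork was called between genotypes. Over the 8 tested in the counts table, the median log2 fold change was -0.13 on HFD, with a range of -0.49 to 0.26, and -0.04 on chow, with a range of -0.29 to 0.32. Pcna, the most abundant, had 35.7, 39.2, 37.5 and 38.0 CPM in LKO livers on HFD, against 25.99, 47.1, 33.6 and 30.5 CPM in WT livers. On chow Pcna had 32.3, 32.0, 34.3 and 33.3 CPM in LKO livers, against 32.2, 30.1, 27.0 and 33.1 CPM in WT livers. The groups overlapped on both diets, with log2 fold changes of 0.13 on HFD (edgeR adjusted p = 0.538) and 0.11 on chow (adjusted p = 0.606). Cdc6 was counted at 4, 12, 13 and 13 in LKO livers on HFD, against 6, 26, 5 and 8 in WT livers. On chow its counts were 6, 8, 5 and 0 in LKO livers, against 4, 5, 7 and 12 in WT livers. Its log2 fold changes were -0.24 on HFD (edgeR adjusted p = 0.837) and -0.70 on chow (adjusted p = 0.514).

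Most of the late genes pointed in opposite directions on the 2 diets, though only 1 of them was called. Cyclins A and B with Cdk1, 4 genes in all, had negative fold changes in all 4 on HFD (median -0.49) and positive ones in all 4 on chow (median 0.77). The mitotic kinases, checkpoint and exit genes, 6 tested, were likewise all negative on HFD (median -0.31) and all positive on chow (median 0.39). Of 7 centromere and spindle genes, 5 were negative on HFD (median -0.32) and 6 positive on chow (median 0.78). The 2 chromosome coat and topoisomerase genes, Mki67 and Top2a, were both negative on HFD (median -0.46). On chow 1 was positive and 1 negative, with a median of 0.02. Over the 38 members, 11 were higher and 27 lower in LKO on HFD, with a median log2 fold change of -0.28, beside a median of -0.01 for all genes tested. On chow 29 were higher and 9 lower, with a median of 0.31 beside 0.02 for all genes tested. At an unadjusted p below 0.05 there were 5 members on HFD, where 30.7% of all genes reached it, and 10 on chow, where 36.0% did. These genes also varied together between libraries of the same group, so their signs are not independent.

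Nusap1, which bundles spindle microtubules (chr2:119618298-119651244, plus strand), was the called gene. On chow Nusap1 had 2.16, 2.97, 1.78 and 2.36 CPM in LKO livers, against 1.13, 1.30, 1.18 and 0.821 CPM in WT livers. All LKO libraries lay above all WT libraries, with a log2 fold change of 1.06 ± 0.243 (edgeR adjusted p = 0.00393). The call held in all 26 alternatives that tested the gene. On HFD it had 2.45, 1.63, 2.68 and 1.69 CPM in LKO livers, against 1.44, 1.97, 1.90 and 1.45 CPM in WT livers, with overlap and a log2 fold change of 0.32 (edgeR adjusted p = 0.388). Nusap1 overlaps Oip5 on the opposite strand over 172 bases, and Oip5 had a value of 0.30 on chow (edgeR adjusted p = 0.657).

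Cenpa, the histone that marks the centromere, was the most abundant gene of the centromere and spindle. It had 5.02, 5.65, 7.20 and 4.58 CPM in LKO livers on HFD, against 6.01, 8.17, 7.03 and 6.88 CPM in WT livers. On chow Cenpa had 6.96, 6.01, 8.84 and 6.62 CPM in LKO livers, against 5.22, 5.98, 4.74 and 5.31 CPM in WT livers. The groups overlapped on HFD and were narrowly apart on chow, where the lowest LKO library had 6.01 CPM and the highest WT library 5.98 CPM. Neither the log2 fold change of -0.32 ± 0.160 on HFD (edgeR adjusted p = 0.188) nor that of 0.42 ± 0.162 on chow (adjusted p = 0.0697) was called.

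Aurka, a kinase that matures the spindle poles, was the most abundant mitotic kinase. It had 2.40, 2.79, 3.62 and 2.64 CPM in LKO livers on HFD, against 2.59, 4.43, 3.91 and 2.66 CPM in WT livers. On chow Aurka had 3.04, 4.39, 3.92 and 4.25 CPM in LKO livers, against 2.86, 2.81, 2.21 and 3.38 CPM in WT livers. The groups overlapped on both diets, and the log2 fold changes were -0.25 on HFD (edgeR adjusted p = 0.475) and 0.47 on chow (adjusted p = 0.119).

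Ccna2, for cyclin A2, had 0.928, 1.86, 3.81 and 1.95 CPM in LKO livers on HFD, against 1.94, 5.06, 2.95 and 1.14 CPM in WT livers. On chow Ccna2 had 1.54, 1.33, 3.08 and 3.06 CPM in LKO livers, against 1.19, 2.25, 1.17 and 0.783 CPM in WT livers. The groups overlapped on both diets, and the log2 fold changes were -0.36 on HFD (edgeR adjusted p = 0.662) and 0.71 on chow (adjusted p = 0.327). Mki67, the coat protein of mitotic chromosomes used as a stain for cycling cells, had 2.86, 3.66, 8.69 and 4.62 CPM in LKO livers on HFD, against 4.76, 12.7, 6.94 and 3.30 CPM in WT livers. On chow Mki67 had 2.91, 2.78, 6.61 and 5.73 CPM in LKO livers, against 2.71, 7.46, 5.27 and 2.90 CPM in WT livers. Its log2 fold changes were -0.47 on HFD (edgeR adjusted p = 0.543) and -0.04 on chow (adjusted p = 0.968), with SEs of 0.462 and 0.473 that leave room for differences of either sign.

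**Figure D3:**
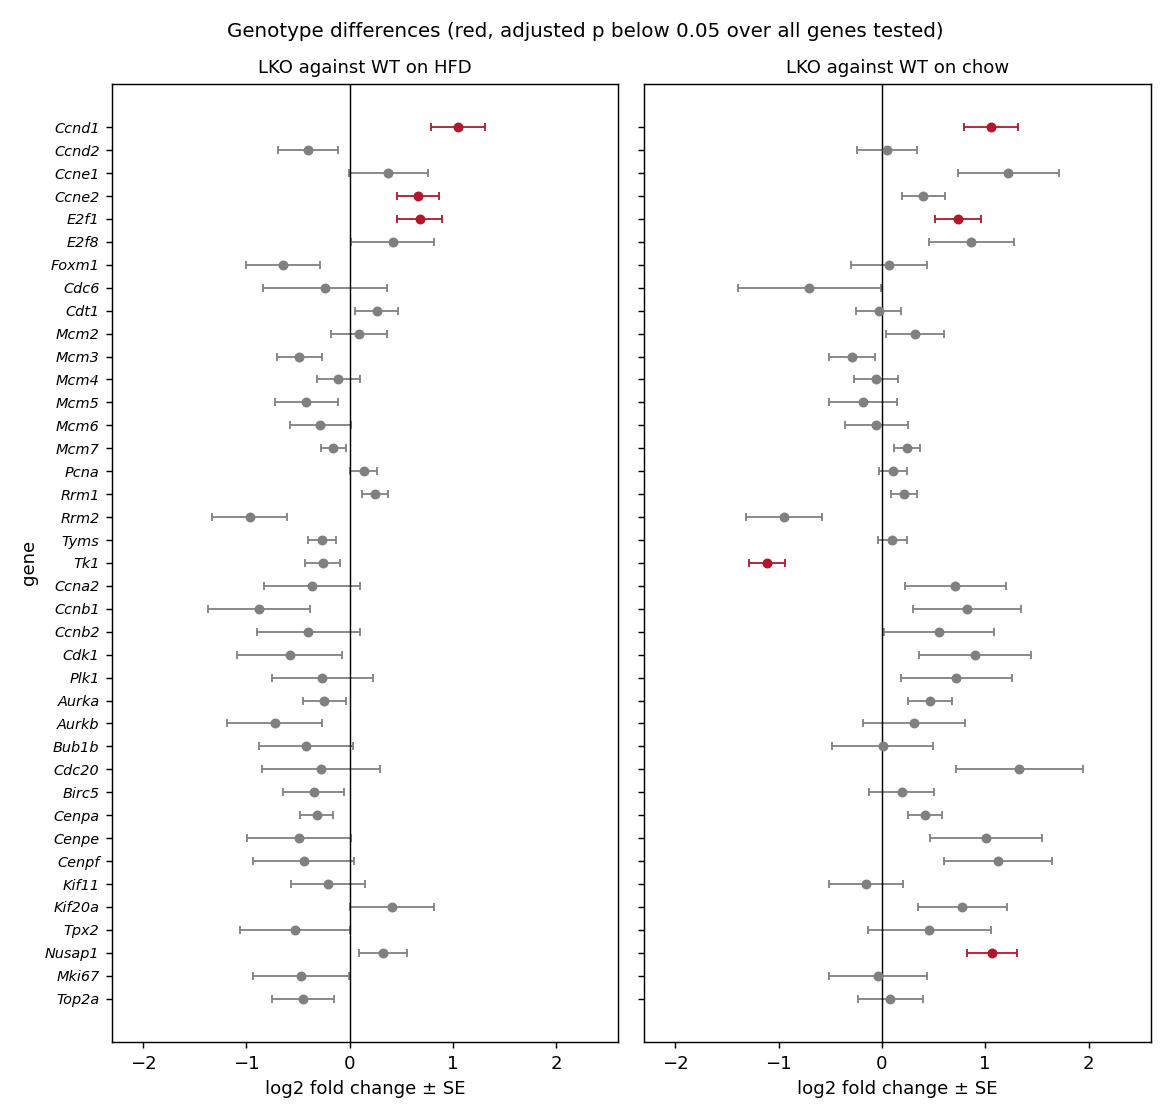
Fitted log2 fold change ± SE of LKO against WT on HFD (left) and on chow (right) for the 38 members tested in the counts table and Cdc6 from the second table, in order of role, with genes called at an adjusted p below 0.05 in red. Ccnd1 is red on both sides at 1.05 and 1.06, and Tk1 is red on chow at -1.11.

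The sum over all members depended on cyclin D1. It was 384, 399, 563 and 494 CPM in LKO livers on HFD, against 295, 482, 349 and 295 CPM in WT livers. On chow it was 361, 558, 477 and 427 CPM in LKO livers, against 288, 329.5, 351 and 259.7 CPM in WT livers. The ratio of group means was 0.37 on the log2 scale on HFD and 0.57 on chow. Without Ccnd1 the sum averaged 229 ± 32.1 CPM in LKO and 243 ± 53.5 CPM in WT on HFD, and 201 ± 11.4 CPM in LKO and 184 ± 15.4 CPM in WT on chow (SD, n = 4 each). The log2 ratio then became -0.086 on HFD and 0.12 on chow.

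Between diets, 1 member passed the test in each genotype. In WT, 36 of the 38 members were higher on HFD than on chow and 2 lower (Ccnd1 and Tk1), with a median log2 fold change of 0.61 beside 0.01 for all genes tested. A single member was called, Mcm5, where 2.04% of all genes tested were called (0.970% higher and 1.07% lower). At an unadjusted p below 0.05 there were 19 members, where 15.4% of all genes reached it. In LKO, 23 of the 38 were higher on HFD and 15 lower, with a median of 0.14. Again 1 member was called, Tk1, where 2.22% of all genes tested were called (1.14% higher and 1.07% lower), and 7 members reached an unadjusted p below 0.05, where 17.6% of all genes did. The 6 hepatocyte markers summed to 77668 to 93363 CPM on HFD and 107469 to 117056 CPM on chow in LKO, and to 59146 to 64770 CPM on HFD and 84323 to 112763 CPM on chow in WT, without overlap between diets in either genotype or between genotypes on HFD. Most of each sum was Alb, for example 50333 of 64088 CPM in WT HFD replicate 1. Between genotypes on HFD the 6 markers had a median log2 fold change of -0.26, with Alb called higher and Tat and Ttr lower. The part of these differences in the members' values was not tested. The comparison of HFD with chow in WT shares the WT chow libraries with that of genotypes on chow.

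Mcm5 (chr8:75109569-75128439, plus strand) had 2.86, 3.54, 6.34 and 4.16 CPM in LKO livers on HFD, against 1.98, 2.39, 1.93 and 1.87 CPM in LKO livers on chow. In WT it had 3.25, 10.4, 4.92 and 4.11 CPM on HFD, against 1.89, 2.61, 2.15 and 2.66 CPM on chow. Within both genotypes every HFD library lay above every chow library. The log2 fold change was 1.05 ± 0.317 in LKO, which was not called (edgeR adjusted p = 0.0931), and 1.28 ± 0.314 in WT, which was (edgeR adjusted p = 0.0434). The call in WT held in 17 of 27 alternatives. It was lost under limma voom (adjusted p = 0.0943) and in a fit of only the groups compared (edgeR adjusted p = 0.0952). It was also lost when any WT chow library, WT HFD replicate 2 or 3, or LKO HFD replicate 2 or 4 was left out, and without WT HFD replicate 2 the fold change was 0.82 (edgeR adjusted p = 0.123). The difference between the 2 diet effects was -0.23 (edgeR adjusted p = 0.876).

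Mcm6 had the next values of the helicase in the same direction, with log2 fold changes of 0.79 in LKO (edgeR adjusted p = 0.176) and 1.02 in WT (adjusted p = 0.0944). Mcm2, Mcm3 and Mcm4, also helicase subunits, had 0.34 to 0.45 in LKO and 0.51 to 0.65 in WT, and were not called (lowest edgeR adjusted p 0.243). Mcm7 had -0.06 in LKO (edgeR adjusted p = 0.849) and 0.34 in WT (adjusted p = 0.168), Pcna 0.19 in LKO (adjusted p = 0.479) and 0.16 in WT (adjusted p = 0.628), and Cdt1, which loads the helicase with Cdc6, 0.38 in LKO (adjusted p = 0.366) and 0.09 in WT (adjusted p = 0.901). Cdc6 had 1.08 in LKO (edgeR adjusted p = 0.429) and 0.61 in WT (adjusted p = 0.726). All 8 licensing and fork genes tested in the counts table thus had positive values in WT, 6 of them at an unadjusted p below 0.05, and 7 had positive values in LKO, 3 at an unadjusted p below 0.05. Their sum was 84.2, 86.0, 105 and 87.3 CPM in LKO livers on HFD, against 74.6, 75.4, 73.0 and 75.4 CPM in LKO livers on chow. In WT livers it was 67.8, 137, 91.1 and 80.4 CPM on HFD, against 66.7, 77.6, 68.8 and 69.4 CPM on chow. The LKO groups were apart and the WT groups overlapped.

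Tk1 rose on HFD in LKO livers, where its 4 HFD values given above all lay above its 4 chow values. Its log2 fold change was 0.74 ± 0.173 in LKO (edgeR adjusted p = 0.0325) and -0.11 ± 0.169 in WT (adjusted p = 0.839). The difference between them was 0.85, at an unadjusted p of 0.00264 and an edgeR adjusted p of 0.395, so that the diet effects were not shown to differ. The call in LKO held in 19 of 27 alternatives and was lost without LKO chow replicate 2, 3 or 4 or any single LKO HFD library, with an adjusted p of up to 0.143.

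The late genes had positive values between diets in WT and values on either side of 0 in LKO. Cyclins A and B with Cdk1 had fold changes of 1.02 to 1.25 in WT (median 1.14) and of -0.44 to 0.10 in LKO (median -0.16). The mitotic kinases, checkpoint and exit genes had a median of 0.91 in WT and 0.04 in LKO, and the centromere and spindle genes one of 0.73 in WT and -0.14 in LKO. None of these was called. Cdc20, for example, had a log2 fold change of -0.23 in LKO (edgeR adjusted p = 0.867) and 1.38 in WT (adjusted p = 0.292), and Tpx2, which targets Aurka to the spindle, 0.50 in LKO (adjusted p = 0.683) and 1.496 in WT (adjusted p = 0.204). Ccne1 had 0.90 in LKO (edgeR adjusted p = 0.247) and 1.75 in WT (adjusted p = 0.0597), from mean counts under 20 and with WT chow replicate 4 at 0.0483 CPM.

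**Figure D4:**
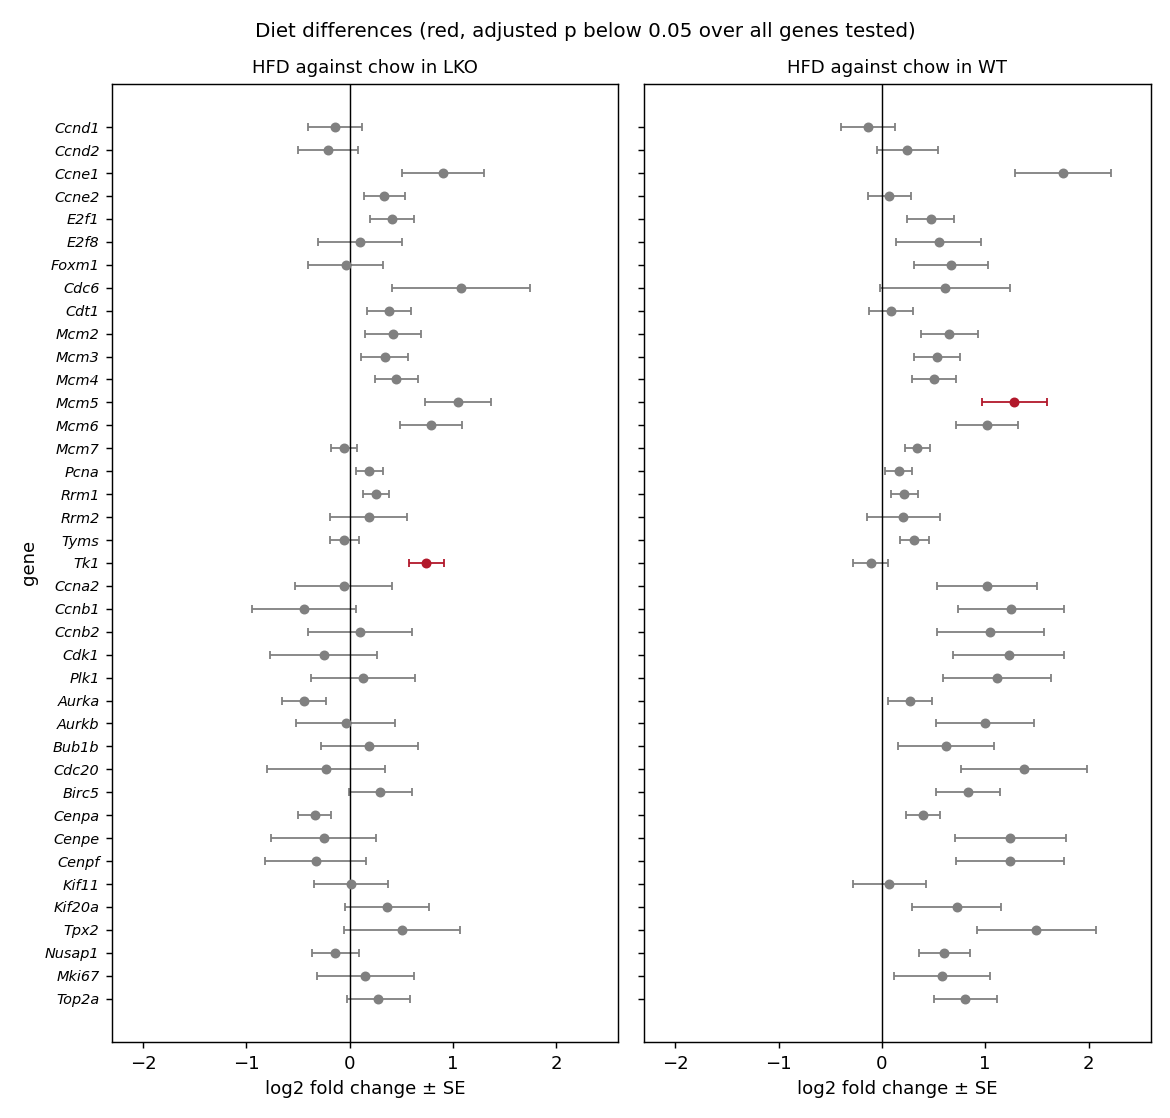
Fitted log2 fold change ± SE of HFD against chow in LKO (left) and in WT (right) for the 38 members tested in the counts table and Cdc6 from the second table, in order of role, with called genes in red. In WT 36 of the 38 lie above 0 and Mcm5 is red at 1.28, while in LKO 23 lie above 0 and Tk1 is red at 0.74.

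Tested directly, the difference between the genotype effects on HFD and on chow was called for 0 of the 38 members by edgeR, where 0.0208% of all genes tested were called (3 of 14434, with 0.00693% higher and 0.0139% lower). DESeq2 and limma voom with quality weights also called 0. At an unadjusted p below 0.05 there were 7 members, where 8.75% of all genes reached it. They were Tk1, at 0.85, and with negative values Cenpa (-0.74, edgeR adjusted p = 0.402), Aurka (-0.71, adjusted p = 0.517), Ccnb1, for cyclin B1 (-1.70, adjusted p = 0.526), Mcm7 (-0.40, adjusted p = 0.54), Nusap1 (-0.74, adjusted p = 0.559) and Cenpf (-1.57, adjusted p = 0.561). The median over the 38 was -0.44, with 5 positive and 33 negative, beside -0.02 for all genes tested. The opposite signs of most late genes on the 2 diets were therefore not called as a difference for any single gene.

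Libraries of the same group differed widely in these genes, and in 3 groups 1 library was the highest in most of them. WT HFD replicate 2 was the highest of the 16 libraries in 26 of the 40 members and the highest of its group in 32. LKO HFD replicate 3 was the highest of its group in 33, and WT chow replicate 2 in 29. The share of all genes highest in these libraries was not computed, so whether the members differ from other genes here is not known. Relative to the mean of the other libraries of its group, on log2(CPM + 0.1), the median over the 40 members was 0.80 in WT HFD replicate 2, 0.56 in LKO HFD replicate 3 and 0.54 in WT chow replicate 2. For all genes tested, the same median lay between -0.01 and 0.02 in each of the 16 libraries, where the scaling itself holds it near 0. Among the 8 roles, cyclins A and B with Cdk1 had the highest median in all 3 libraries, at 1.51 in WT HFD replicate 2, 1.34 in LKO HFD replicate 3 and 1.06 in WT chow replicate 2. Nucleotide supply had the lowest, at 0.38, 0.01 and 0.07 in the same libraries. The licensing and fork genes, at 0.88, 0.40 and 0.28, came near the mitotic kinases, checkpoint and exit genes in WT HFD replicate 2, at 0.93, and lay below them in LKO HFD replicate 3, at 1.03, and in WT chow replicate 2, at 0.91. None of 9 summed lists of cell type markers was the highest of its group in all 3 libraries. In WT HFD replicate 2 the macrophage markers summed to 505 CPM and the endothelial markers to 126 CPM, both the lowest of its group, and the neutrophil markers to 4.77 CPM, the highest of its group. In WT chow replicate 2 the macrophage and endothelial sums, at 765 and 296 CPM, were instead the highest of its group. So were its T and NK, B and plasma and neutrophil sums, while its hepatocyte sum was the lowest. In LKO HFD replicate 3 the macrophage and endothelial sums, at 523 and 141 CPM, were the lowest of its group. Its hepatocyte, T and NK, B and plasma, bile duct and erythroid sums were the highest. Their part in these values was not tested.

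Without WT HFD replicate 2, the median log2 fold change of the members was -0.04 for LKO against WT on HFD, with 17 positive and 21 negative, and 0.37 for HFD against chow in WT, with 32 positive and 6 negative. The number of members called on HFD between genotypes was then 5, with Pcna and Rrm1 added to Ccnd1, Ccne2 and E2f1, and the number called in WT by diet was 0. Without LKO HFD replicate 3, the median for LKO against WT on HFD was -0.51 and the number called was 1, Ccnd1. The same number, again Ccnd1, remained without WT HFD replicate 3 or LKO HFD replicate 2. WT HFD replicate 2 and LKO HFD replicate 3 were singled out by the members' own values, so leaving either out moves the medians by construction. The share of all genes called in these fits is not given here.

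LKO libraries on chow also fell into pairs. Replicates 3 and 4 were both above replicates 1 and 2 in 18 of the 40 members, which included 5 of 7 mitotic kinase, checkpoint and exit genes, 5 of 7 centromere and spindle genes and 3 of 4 of cyclins A and B with Cdk1. They were both below in 5, of which 4 were among the 9 licensing and fork genes. The share of all genes ordered in these ways was not computed, so whether the members differ from other genes here is not known. Cdk1, for instance, had 0.925, 1.39, 2.004 and 2.05 CPM in replicates 1 to 4. Macrophage markers summed to 739, 642, 180.4 and 362 CPM in LKO chow replicates 1 to 4, and endothelial markers to 321, 265, 119 and 107 CPM. Whether these are linked was not tested. These pairs were set apart with the members' values known, so leaving out the pair with less RNA of the late genes raises their fold changes by construction. Leaving out replicates 1 and 2 gave 7 members called on chow (Ccnd1, Ccne1, Cenpa, Cenpe, Cenpf, Nusap1 and Tk1) and a median of 0.53, and leaving out replicates 3 and 4 gave a median of 0.09, with 25 of 39 positive. The share of all genes called without these libraries is not given here.

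**Figure D5:**
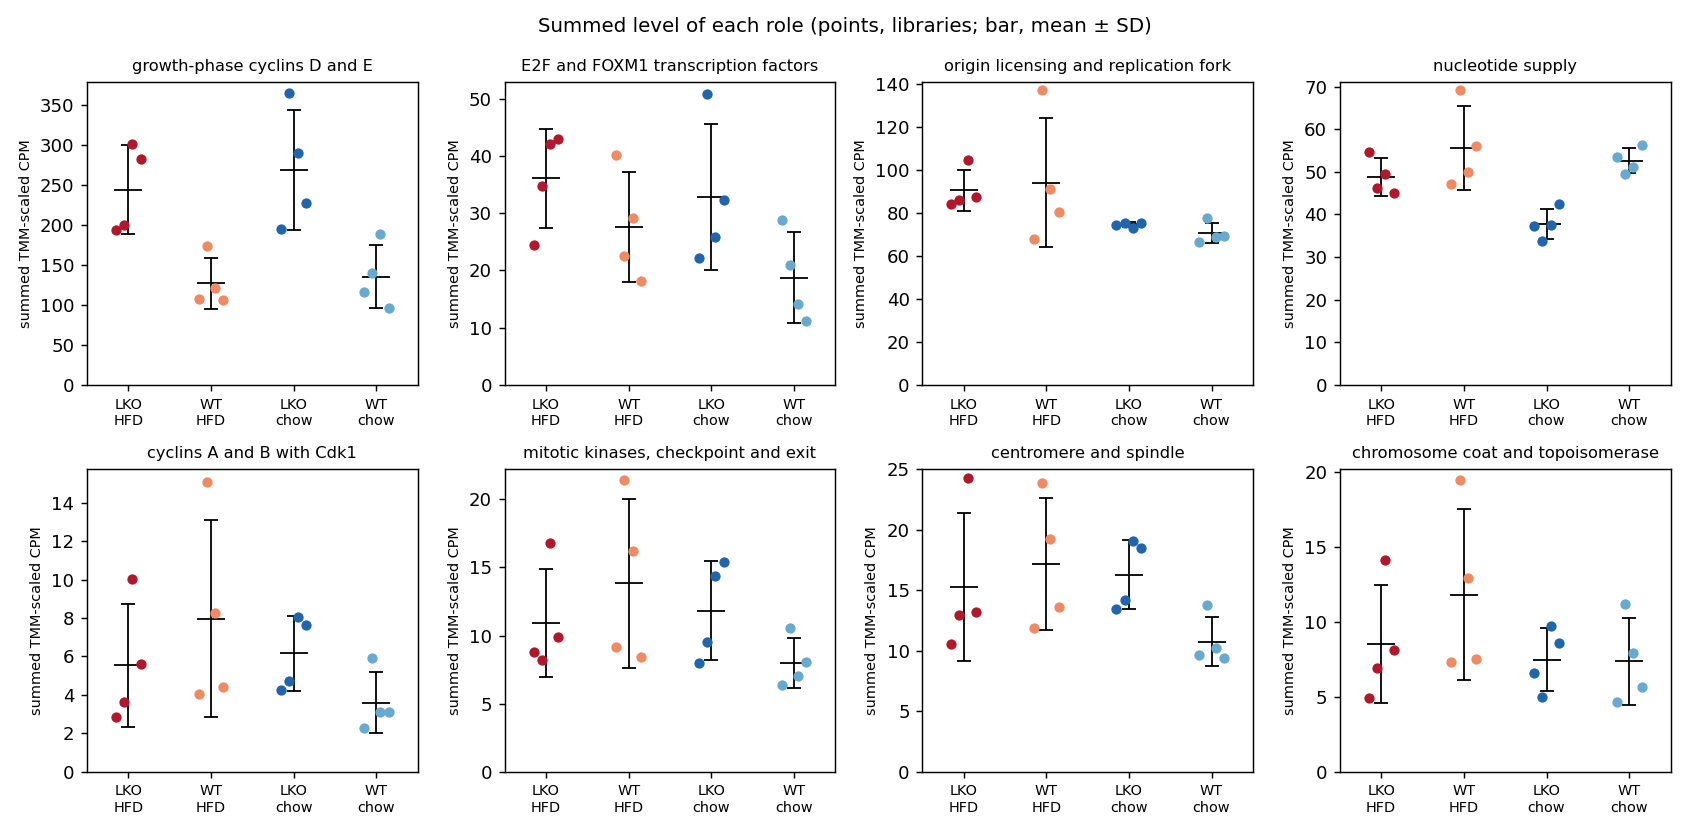
Summed TMM-scaled CPM of the members of each of 8 roles, by group from left to right LKO HFD, WT HFD, LKO chow and WT chow, with 1 point per library and the mean ± SD (n = 4) as a bar. The sum of the growth-phase cyclins, most of it Ccnd1, lies higher in LKO on both diets. That of nucleotide supply, of which Tk1 alone was called, is lowest in LKO on chow. The late roles spread widely, with WT HFD replicate 2 at 15.1 CPM for cyclins A and B with Cdk1.

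Some genes that restrain the cycle also differed between genotypes. Of 7 CDK inhibitors tested, 2 were called higher in LKO on HFD and 3 on chow. Beside this list and those below, 17.9% of all genes tested were called on HFD (10.3% higher and 7.57% lower). On chow 24.7% were called (12.9% higher and 11.8% lower). Cdkn1a, the inhibitor that responds to DNA damage, had 116, 98.3, 92.2 and 141 CPM in LKO livers on HFD, against 8.92, 5.11, 6.18 and 3.75 CPM in WT livers. On chow Cdkn1a had 125, 199, 93.8 and 84.8 CPM in LKO livers, against 10.5, 9.57, 4.32 and 4.70 CPM in WT livers. The groups were far apart, with log2 fold changes of 4.22 ± 0.372 on HFD (edgeR adjusted p = 2.15e-06) and 4.11 ± 0.368 on chow (edgeR adjusted p = 1.95e-06). Cdkn2c, an inhibitor of Cdk4 and Cdk6, averaged 14.2 ± 0.263 CPM in LKO and 8.93 ± 1.83 CPM in WT on HFD, and 13.8 ± 2.29 CPM in LKO and 6.94 ± 1.21 CPM in WT on chow (SD, n = 4 each; log2 fold changes 0.67 and 0.99, edgeR adjusted p = 0.00469 and 0.000181). Cdkn1b rose on chow (0.33, edgeR adjusted p = 0.0152) and had 0.24 on HFD (adjusted p = 0.0793). Cdkn1c, Cdkn2a, Cdkn2d and Cdkn3 were not called between genotypes (lowest edgeR adjusted p 0.547), and Cdkn2b, at 0.161 to 0.566 CPM on average in the 4 groups, did not pass the filter.

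Among 17 further regulators of the retinoblastoma, E2F and MuvB network, 2 were called higher and 1 lower in LKO on HFD, and 3 higher and 0 lower on chow (all genes, 17.9% and 24.7% called). Mybl1, a MYB-family activator, averaged 6.75 ± 1.53 CPM in LKO and 0.891 ± 0.619 CPM in WT on HFD, and 7.09 ± 2.50 CPM in LKO and 0.753 ± 0.335 CPM in WT on chow (SD, n = 4 each; log2 fold changes 2.92 and 3.21, edgeR adjusted p = 6.54e-05 and 2.64e-05). Rb1, the retinoblastoma gene, rose by 0.31 on HFD (edgeR adjusted p = 0.0369) and 0.29 on chow (adjusted p = 0.0383). E2f4, a repressor in resting cells, fell by 0.31 on the log2 scale on HFD (edgeR adjusted p = 0.0278), and Mybl2, which joins MuvB to activate late genes, rose by 0.95 on chow (adjusted p = 0.0288).

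Of 17 other cyclins and CDK regulators, 2 were called higher and 0 lower on HFD, and 3 higher and 2 lower on chow (all genes, 17.9% and 24.7% called). Ccnd3, for cyclin D3, averaged 44.5 ± 3.34 CPM in LKO and 32.9 ± 1.89 CPM in WT on HFD, and 55.3 ± 7.19 CPM in LKO and 33.1 ± 5.62 CPM in WT on chow (SD, n = 4 each; log2 fold changes 0.44 and 0.74, edgeR adjusted p = 0.0151 and 0.000205). Cdk6, its kinase partner, rose on chow (0.46, edgeR adjusted p = 0.00131), and Mnat1, an assembly factor of the CDK-activating kinase, fell by 0.42 on the log2 scale on chow (adjusted p = 0.0154). Wee1, the kinase that holds Cdk1 inactive, averaged 20.7 ± 4.59 CPM in LKO and 9.42 ± 2.45 CPM in WT on HFD (SD, n = 4 each; log2 fold change 1.13, edgeR adjusted p = 0.0011). In LKO it also rose on HFD against chow, where it averaged 7.93 ± 1.04 CPM (log2 fold change 1.38, edgeR adjusted p = 0.00275).

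Of 38 other replication genes, 0 were called higher and 3 lower in LKO on HFD, and 2 higher and 3 lower on chow. Both shares lay below those of all genes (17.9% and 24.7% called). Orc3, a subunit of the origin recognition complex, fell by 0.48 on the log2 scale on HFD (edgeR adjusted p = 0.00452) and by 0.53 on chow (adjusted p = 0.00156). Rpa3, which binds single-stranded DNA, fell by 0.67 on HFD (edgeR adjusted p = 0.0108). Rfc2, a subunit of the clamp loader, rose by 0.31 on chow (edgeR adjusted p = 0.0217).

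Of 48 other mitosis genes, 1 was called higher and 1 lower in LKO on HFD, and 6 higher and 0 lower on chow. Here too both shares lay below those of all genes (17.9% and 24.7% called). Pttg1, which encodes securin, averaged 27.7 ± 1.26 CPM in LKO and 20.0 ± 1.75 CPM in WT on HFD, and 33.8 ± 6.36 CPM in LKO and 21.8 ± 2.83 CPM in WT on chow (SD, n = 4 each; log2 fold changes 0.47 and 0.63, edgeR adjusted p = 0.0132 and 0.00123). Bub3, of the spindle checkpoint, fell by 0.40 on the log2 scale on HFD (edgeR adjusted p = 0.00424). On chow Ckap2, a spindle protein, had a log2 fold change of 1.94 (edgeR adjusted p = 0.00405) and Kif2c, a kinesin that removes tubulin from microtubule ends, of 1.51 (adjusted p = 0.0204), both at under 2 CPM on average in either genotype on chow. The list's median was -0.18 on HFD and 0.15 on chow between genotypes, and 0.17 in LKO and 0.60 in WT between diets.

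Of 19 other genes tied to proliferation, 1 was called higher and 0 lower in LKO on HFD, and 1 higher and 3 lower on chow (all genes, 17.9% and 24.7% called). Tubb5, a beta tubulin, rose by 0.35 on HFD (edgeR adjusted p = 0.0114) and 0.33 on chow (adjusted p = 0.0142). On chow the repair genes Brca2 and Brca1 fell by 0.60 and 0.62 on the log2 scale (edgeR adjusted p = 0.00265 and 0.0213) and Lmnb1, for lamin B1, fell by 0.65 (adjusted p = 0.0047). Of 13 growth signal genes, 1 was called in each direction on both diets (all genes, 17.9% called on HFD and 24.7% on chow). On HFD Mycn rose by 1.49 (edgeR adjusted p = 0.013) and Ccn2, a target of the Hippo pathway, fell by 0.60 (adjusted p = 0.0358). On chow Myc rose by 0.91 (edgeR adjusted p = 0.044) and Met, the receptor for hepatocyte growth factor, fell by 0.99 (adjusted p = 0.000751). Between diets, Rpa1, a partner of Rpa3, was called higher on HFD in LKO beside Wee1, at 0.46 (edgeR adjusted p = 0.0371).

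Markers of other cells of the liver were compared beside these values. The 11 macrophage markers summed to 523 to 874 CPM in LKO and 505 to 761 CPM in WT on HFD, and to 180.4 to 739 CPM in LKO and 342 to 765 CPM in WT on chow, and none of them was called between groups. The 7 B and plasma cell markers summed to 21.0 to 81.8 CPM in LKO and 28.3 to 81.9 CPM in WT on HFD, and to 41.5 to 64.6 CPM in LKO and 34.4 to 184.5 CPM in WT on chow, where Jchain fell by 1.79 on the log2 scale (edgeR adjusted p = 0.0204). The 9 T and NK cell markers summed to 5.13 to 9.45 CPM over the 16 libraries with Klrb1c at 0 in some. Prf1 alone of them was called, and rose in LKO by 1.42 on HFD (edgeR adjusted p = 0.0263) and 2.05 on chow (adjusted p = 0.000769). The 8 T and NK cell markers tested had a median log2 fold change of 0.17 on HFD and -0.37 on chow. The 5 neutrophil markers summed to 0.790 to 5.78 CPM, with Ly6g and Retnlg at 0 in some libraries. The 7 stellate cell and fibroblast markers summed to 304 to 473 CPM in WT on HFD and 208 to 355 CPM in WT on chow, where Col1a1 and Col3a1 rose with HFD by 1.18 and 1.03 (edgeR adjusted p = 0.0204 and 0.00429). The 6 endothelial and 5 bile duct markers gave no call. Of the 6 hepatocyte markers, Alb rose in LKO and Tat and Ttr fell on HFD, and Tat and Cps1 fell on chow. Among 3 erythroid markers, Alas2 alone was called, and rose in LKO on both diets. The 3 had a median log2 fold change of 0.30 on HFD and -0.07 on chow. They summed to 332 to 536 CPM in LKO and 298 to 381 CPM in WT on HFD. On chow they summed to 234 to 1012 CPM in LKO and 396 to 875 CPM in WT. The part of such cells in the values of the proliferation genes was not tested.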

How the data were processed

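Poly(A)-selected liver RNA was sequenced on a NovaSeq as paired-end reads, per the labels' protocols. Both deposited tables give estimated counts (expected counts) by gene symbol, and 51.1% of the values were whole numbers within 1e-06. Names in the submitters' processing notes are mm10, Bowtie2 and DESeq2, and the counting tool, annotation and use of strand are not given in the sources used here. The second table has RPKM in its name, but its values equal those of the counts table once its 8 chow columns, which stood 1 row below their genes, are moved up by 1 row (15119 genes matched).

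Counts were rounded and tested with edgeR 4.0.16 in R 4.3.3 (TMM scaling, filterByExpr, quasi-likelihood fits over all 16 libraries with 1 mean per group, 2-sided, Benjamini-Hochberg over 14434 genes, or 14762 in the second table). The method was tested on simulated data. Replicate numbers did not pair libraries (5 of 24 correlations above 0.1), so no block was used. Alternatives used DESeq2 1.42.0 and limma 3.58.1. Coordinates, exon lengths and overlaps came from GENCODE M21 (GRCm38).

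The members and lists were chosen with earlier results of these data known. Libraries are shown in full for each member called in any comparison, for the member with the highest mean CPM of each role, and for Rrm2 and Cdc6, picked after their values were seen. From the related lists all CDK inhibitors and, per list, up to 4 genes with the lowest p among those called between genotypes are named, except 1 gene that is not reported here, and Lin54 was not analysed here.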

Additional observations from a re-analysis of the deposited data

Results flagged for a closer look

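Of 160 groups of 4 libraries screened for the 40 members, 8 held a library far from the other 3, which is what chance gives in about 1 in 20 groups. The libraries were LKO HFD replicate 3 for Mcm4, at 8.69 CPM where the next library had 6.95 CPM, and for Rrm2, at 5.52 against 3.53 CPM. Tk1 stood at 24.8 CPM in LKO HFD replicate 1, against 19.4 CPM in the next. Cdc6 stood at 1.28 CPM in WT HFD replicate 2, against 0.361 CPM in the next. Rrm1 stood at 15.8 CPM in LKO chow replicate 4, against 13.7 CPM in the next, and Bub1 at 0.63 CPM in the same library, against 0.264 CPM. Bub1b, of the spindle checkpoint, stood at 1.89 CPM in WT chow replicate 2, against 0.699 CPM in the next, and Ccne1 was far below the others in WT chow replicate 4, at 0.0483 CPM where the next lowest had 0.269 CPM. The summed licensing and fork genes were high in LKO HFD replicate 3, at 105 CPM against 87.3 CPM in the next library.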

How the results depend on the processing

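The number of members called was 3 between genotypes on HFD, 4 between genotypes on chow, 1 by diet in LKO, 1 by diet in WT and 0 for the interaction, and the fit with a replicate block gave the same 3, 4, 1, 1 and 0. The libraries share only a number, and 3 of 16 correlated best with a library of their own number. With DESeq2 the diet counts were 2 in LKO (Mcm5 and Tk1) and 3 in WT (Ccne1, Mcm5 and Mcm6), and with limma voom the HFD genotype count was 7 (Cenpa, Mcm3, Rrm1 and Rrm2 added). Fitting only the groups compared gave 0 by diet in WT. Leaving out LKO chow replicates 1 and 2, a pair set apart with these values known, gave 7 on chow, 2 by diet in WT and 1 for the interaction (Cenpa), and leaving out 3 and 4 gave 0 by diet in LKO and 2 in WT. Leaving out each library in turn gave 1 to 5 on HFD, 3 to 5 on chow, 0 to 2 by diet in LKO, 0 to 2 by diet in WT and 0 to 0 for the interaction. The share of all genes called under these alternatives is not given here, so the counts do not set the members apart from other genes. The log2 ratio of the members' sums between genotypes became -0.086 on HFD and 0.12 on chow without Ccnd1, and -0.14 on HFD as the mean of log2(CPM + 0.1). That mean gave 0.59 by diet in WT, where the sum gave 0.21. With 1 library left out the sums ranged over 0.26 to 0.56 on HFD, 0.46 to 0.67 on chow, -0.10 to 0.12 by diet in LKO and 0.03 to 0.29 by diet in WT. The median of the members by diet in LKO, 0.14, became -0.09 under voom and -0.04 without LKO chow replicates 1 and 2. The causes were not tested. Depth limits the members with few counts, and 4 libraries per group limit the rest.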
